A study of Mus musculus with 48 samples.

Results

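Ion channels are the membrane pores through which a muscle fibre fires, conducts and ends its action potential. The genes described here encode subunits of voltage-gated sodium, calcium and potassium channels, of inward rectifier, two-pore-domain and calcium-activated potassium channels, of CLC chloride channels and of TRP cation channels. They were chosen by name: a mapped symbol beginning with Kcn and a letter, with Scn or Clcn, with Cacn, or with Trpa, Trpc, Trpm or Trpv, leaving out Kcnk1 and Cacna1s. The rule reads gene names only. The rule found 82 of the 14125 genes in the count table, out of 84 that match before those 2 genes are left out. By role, the 82 were 4 sodium channel pore subunits, 4 sodium channel beta subunits, 5 calcium channel pore subunits, 11 calcium channel auxiliary subunits, 7 CLC genes, 17 voltage-gated potassium channel subunits, 7 potassium channel auxiliary subunits, 7 inward rectifiers, 4 two-pore-domain channels, 7 genes of the calcium-activated potassium channel group and 9 genes with a Trp symbol. Trpc4ap matches the naming rule but encodes a TRPC4-associated protein, not a channel.

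RNA came from mixed gastrocnemius, a calf muscle, of male C57BL6J mice that were treated for 2 weeks. Cort_ATGLi mice (n = 14) drank corticosterone at 100 ug/ml and ate chow with the lipolysis inhibitor atglistatin at 571 mg/kg. Cort_CON mice (n = 14) drank the same corticosterone and ate the control diet. EtOH_ATGLi mice (n = 10) drank vehicle, 1% ethanol, with the atglistatin diet, and EtOH_CON mice (n = 10) drank vehicle with the control diet. Corticosterone is the main glucocorticoid of mice, and atglistatin blocks adipose triglyceride lipase. The labels do not record whether ethanol was in the corticosterone water, so a difference in ethanol cannot be told apart from corticosterone. The labels call 9 of the 14 Cort_CON mice diabetic and all other mice nondiabetic. They do not say that each library is a separate mouse; the glucose and insulin values given for each library differ, and each library was taken as 1 mouse.

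Voltage-gated sodium channels start the muscle action potential, and potassium and chloride channels end it and hold the resting potential. The chloride conductance of a resting fibre comes mostly from the channel encoded by Clcn1, and inward rectifiers of the Kir family clear potassium from the transverse tubules. Most channels combine a pore subunit with auxiliary subunits that alter its gating or its transport to the membrane. The silent voltage-gated subunits, to which Kcnf1 and Kcng4 belong, form no channel alone and act only within tetramers with other subunits.

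Promoter windows are shown for 3 members: Kcnf1 and Cacna1i, which had the largest rises under corticosterone, and Clcn5, which fell on both diets. Each window runs from 250 bases before to 50 bases after the RefSeq transcription start, on the sense strand, in build GRCm38.p6. Kcnf1 lies on the minus strand at chr12:17176839-17177138, Cacna1i on the plus strand at chr15:80286988-80287287, and Clcn5 on the minus strand at chrX:7319309-7319608. Capitals mark a match to 1 arm of the glucocorticoid response element, AGAACA or its reverse complement TGTTCT; all other bases are in lower case.
Kcnf1: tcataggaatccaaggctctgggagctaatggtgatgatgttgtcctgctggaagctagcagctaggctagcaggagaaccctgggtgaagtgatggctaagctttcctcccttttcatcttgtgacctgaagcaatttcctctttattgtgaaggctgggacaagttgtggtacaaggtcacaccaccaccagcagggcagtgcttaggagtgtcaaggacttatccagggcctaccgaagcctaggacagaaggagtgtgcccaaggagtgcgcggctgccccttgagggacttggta
Cacna1i: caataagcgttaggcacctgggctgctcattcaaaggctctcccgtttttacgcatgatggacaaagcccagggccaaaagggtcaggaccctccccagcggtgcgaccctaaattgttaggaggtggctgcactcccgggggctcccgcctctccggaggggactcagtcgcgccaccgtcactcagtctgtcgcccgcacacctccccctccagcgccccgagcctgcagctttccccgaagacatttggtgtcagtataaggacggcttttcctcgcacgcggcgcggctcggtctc
Clcn5: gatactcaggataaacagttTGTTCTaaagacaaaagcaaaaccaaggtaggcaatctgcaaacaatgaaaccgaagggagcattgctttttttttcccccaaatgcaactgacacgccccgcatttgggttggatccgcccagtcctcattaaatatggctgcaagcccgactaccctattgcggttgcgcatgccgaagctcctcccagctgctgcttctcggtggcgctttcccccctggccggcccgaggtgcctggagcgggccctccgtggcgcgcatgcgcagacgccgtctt
An arm was present in the Clcn5 window, starting at position -230 from the transcription start, and in neither of the other two. Windows were available for 62 members, and for those with several windows 1 was taken per gene. Of these, 5 (8.06%) held an arm on either strand, against 19% of all 32851 promoter windows in the table. They belonged to Clcn1, Clcn5, Kcnab1, Kcnk2 and Scn4b. Both arms facing each other, AGAACA and then TGTTCT with 3 bases between, were in none of the 62 member windows and in 0.00913% of all windows. A match is a description of these letters only, and its absence says nothing about binding of the receptor.

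Counts came from QuantSeq libraries, which prime at the 3′ end of polyadenylated RNA, so levels are given as CPM (counts relative to the library total, with totals scaled by TMM) and can be compared between samples but not between genes. Total counts ran from 10453888 to 24034481 per library, so 1 CPM stood for about 10 to 24 counts. Of the 82 members, 67 passed the filter on low counts and were tested, and 23 of those averaged under 1 CPM. The muscle markers fixed for checking the tissue summed to between 71839.6 and 134337.1 CPM in every library, and no marker of any list was at 0 throughout. Of all libraries, 3 correlated least with their own groups: EtOH_CON p01 (median r = 0.9517), Cort_ATGLi p41 (0.9569) and Cort_CON p45 (0.9624). Those libraries were the lowest or highest of their group for 29, 28 and 18 of the 67 tested members, in the same order. Named calls that rest on them are given with and without them. All counts of 47 among the 48 libraries were even numbers, and 49.6% of those of EtOH_ATGLi p13 were odd.

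Corticosterone moved channel genes in both directions on both diets. On the control diet, 12 of the 67 tested members rose and 18 fell (44.8% in all), where 38.4% of all 12592 tested genes were called, 18.9% upward and 19.5% downward. With atglistatin, 10 rose and 13 fell (34.3%), where 30% of all genes were called, 15% in each direction. The members' share of calls was therefore a little above that of all genes in each comparison. Members called with at least a 2-fold change made up 17.9% on the control diet and 11.9% with atglistatin, against 7.47% and 5.13% of all genes. Several of those calls were at low counts, among them Cacna1g, Kcne1l, Kcnh2, Kcnj15 and Kcnn3, where only a large change passes the threshold. Cacna1i and Kcne1l passed the filter on low counts through the corticosterone libraries, with vehicle medians of 0.146 CPM or less. Kcnj15 (no vehicle library above 0.607 CPM) and Scn3b (vehicle medians of 0.458 and 0.724 CPM) passed it mainly through those libraries too. Cacna1g, Kcnh2 and Kcnn3 were higher in vehicle libraries. They failed the filter when only the 2 control-diet groups were fitted or counts were halved. For these members, passing depended on the group where they were high, so their changes are descriptions only. The 2-fold shares were not compared with genes at like counts. The members' median log2 fold change was -0.17 on the control diet and -0.13 with atglistatin, and that of all genes was -0.00 in both. Calls are by edgeR's quasi-likelihood test at an adjusted p under 0.05, and log2 fold changes are corticosterone over vehicle with their standard error (SE).

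On both diets 9 members rose: Cacna1i, Cacng1, Kcnc4, Kcne1l, Kcnf1, Kcnj12, Scn2b, Scn3b and Scn4a. Another 9 fell on both, among them Cacna2d4, Clcn5, Kcna6, Kcnab1, Kcnj8 and Scn4b. Of all 12592 tested genes, 12.3% rose on both diets and 12.2% fell on both, so 9 of 67 members in each direction is near the background. No member was called in opposite directions, and 32 of the 67 were called on neither diet. The 2 comparisons share no library. A further 12 members were called on the control diet alone and 5 with atglistatin alone. Of all genes, 38.4% were called on the control diet and 30% with atglistatin, each counted with or without a call on the other diet. The matching shares for 1 diet alone or for neither were not taken, so these counts are not read as a trait of channel genes. No member differed between diets by the interaction test described further on. With only the 5 nondiabetic Cort_CON mice set against EtOH_CON, 15 of the 30 control-diet calls remained, which is 22.4% of the members where 22.7% of all genes were called. Among the control-diet calls lost there were Cacna1a, Cacnb1, Cacng6, Kcna2, Kcna5, Kcna6, Kcnab1, Kcnc4, Kcne4, Kcnn3, Scn2b and Scn4b, with adjusted p of 0.0673 to 0.961. The lists of members called on both diets cut across the channel classes: sodium, calcium, potassium and auxiliary subunits stand on both.

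**Figure D1:**
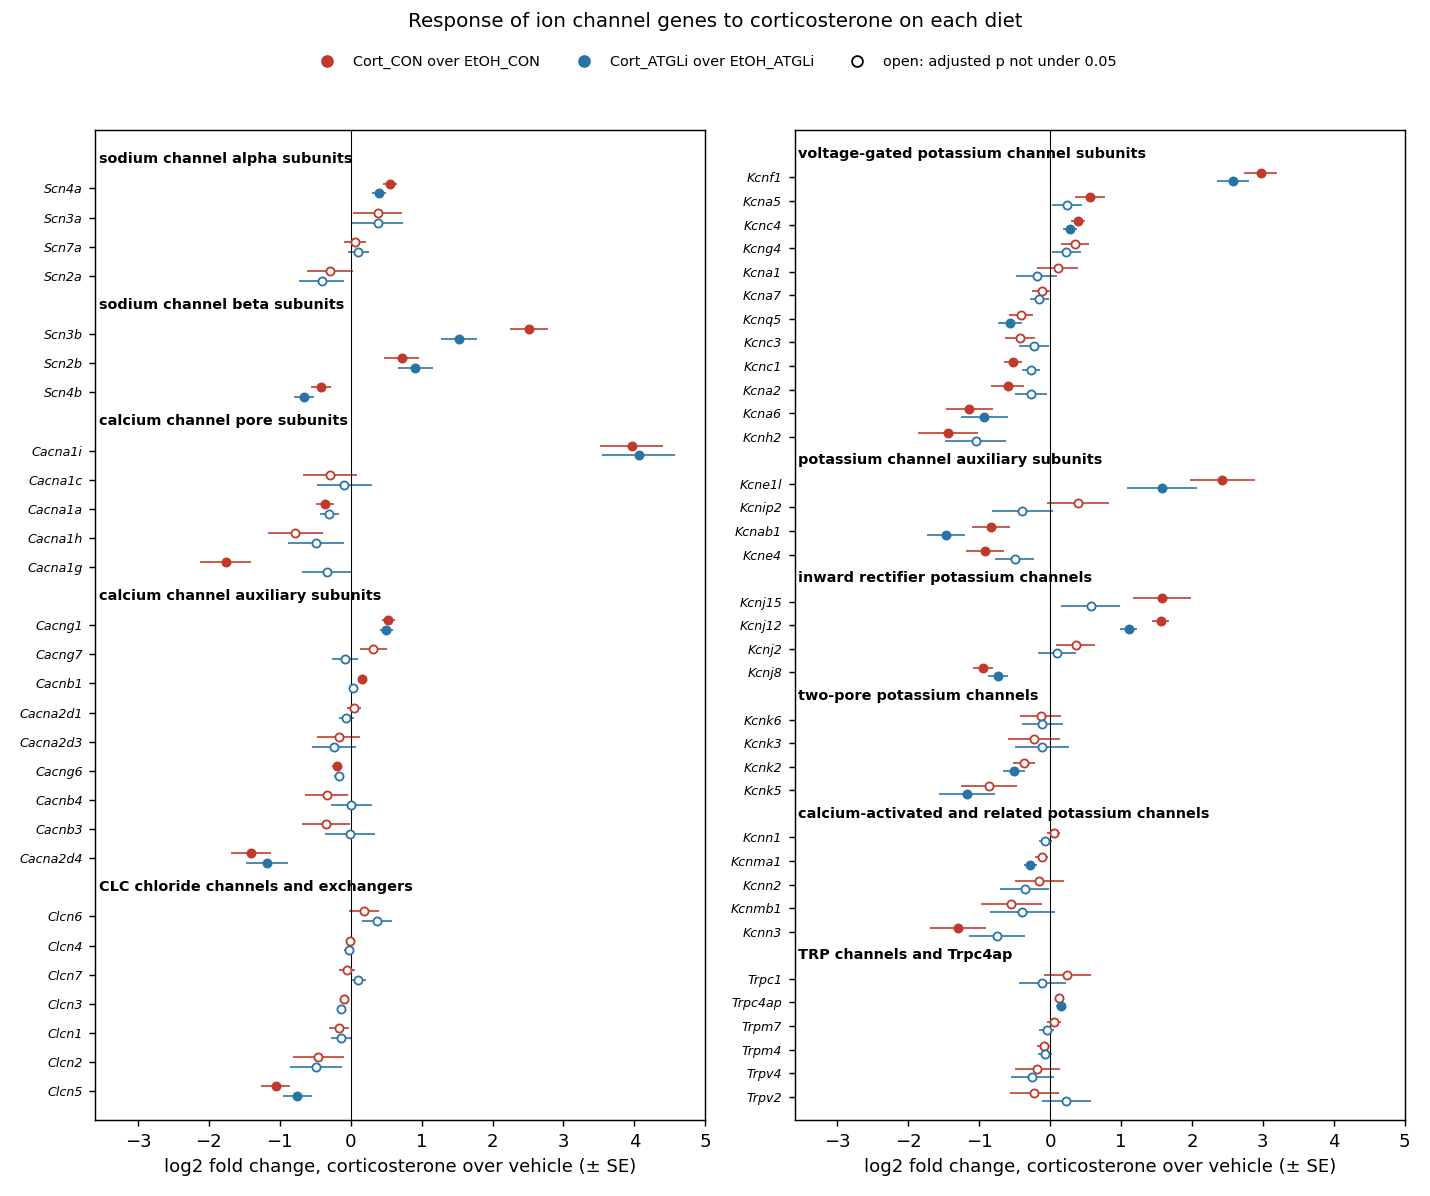
Log2 fold change of corticosterone over vehicle (x axis) for tested channel genes by class, on the control diet (red, Cort_CON over EtOH_CON) and on atglistatin (blue, Cort_ATGLi over EtOH_ATGLi). Bars are SE and open points were not called. Cacna1i and Kcnf1 stand farthest right on both diets, at 3.96 and 2.97 on the control diet, and most points of the CLC and TRP genes lie near 0.

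The sodium channel genes moved in both directions. Scn4a, the pore subunit of the skeletal muscle sodium channel, had 14.6 to 27.3 CPM (median 18) in Cort_CON libraries and 10.1 to 15 CPM (median 13.4) in EtOH_CON libraries. On atglistatin it had 13.9 to 26.1 CPM (median 19.9) in Cort_ATGLi and 11.2 to 17.7 CPM (median 15.3) in EtOH_ATGLi. The groups overlapped little: 13 of 14 Cort_CON libraries lay above every EtOH_CON library, and 10 of 14 Cort_ATGLi libraries above every EtOH_ATGLi library. Scn4a rose by a log2 change of 0.55 (SE 0.10, adjusted p = 5.27e-06) on the control diet and 0.40 (SE 0.10, adjusted p = 0.000751) with atglistatin. The other pore subunit genes were not called on either diet. Scn7a, which encodes a sodium-sensing relative of the channels, had log2 fold changes of 0.06 and 0.11, with both groups overlapping widely.

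Among the beta subunit genes, Scn2b and Scn3b rose on both diets and Scn4b fell. Scn3b had 1.31 to 4.90 CPM (median 2.54) in Cort_CON and 0.121 to 1.07 CPM (median 0.458) in EtOH_CON, and these groups did not overlap. On atglistatin it had 1.25 to 3.86 CPM (median 1.98) in Cort_ATGLi and 0.362 to 1.60 CPM (median 0.724) in EtOH_ATGLi, where 1 vehicle library, p07, stood above the next one at 0.87 CPM. Scn3b rose by 2.51 (SE 0.27, adjusted p = 2.01e-11) on the control diet and by 1.53 (SE 0.25, adjusted p = 3.05e-06) with atglistatin on the log2 scale. Scn2b rose by 0.72 (SE 0.25, adjusted p = 0.0175) and 0.91 (SE 0.25, adjusted p = 0.00393), with medians of 1.47 CPM in Cort_CON and 0.818 CPM in EtOH_CON, and 1.40 CPM in Cort_ATGLi and 0.746 CPM in EtOH_ATGLi.

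Scn4b, a beta subunit found in muscle and nerve, moved the other way. It had 64.4 to 146.6 CPM (median 106.1) in Cort_CON and 103.1 to 171.1 CPM (median 144.4) in EtOH_CON. On atglistatin it had 26.9 to 138.4 CPM (median 100.4) in Cort_ATGLi and 137.9 to 169.7 CPM (median 152.5) in EtOH_ATGLi. With atglistatin 13 of 14 corticosterone libraries lay below every vehicle library; on the control diet 5 of 14 did. The log2 fold changes were -0.42 (SE 0.14, adjusted p = 0.0134) on the control diet and -0.66 (SE 0.14, adjusted p = 0.000195) with atglistatin.

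**Figure D2:**
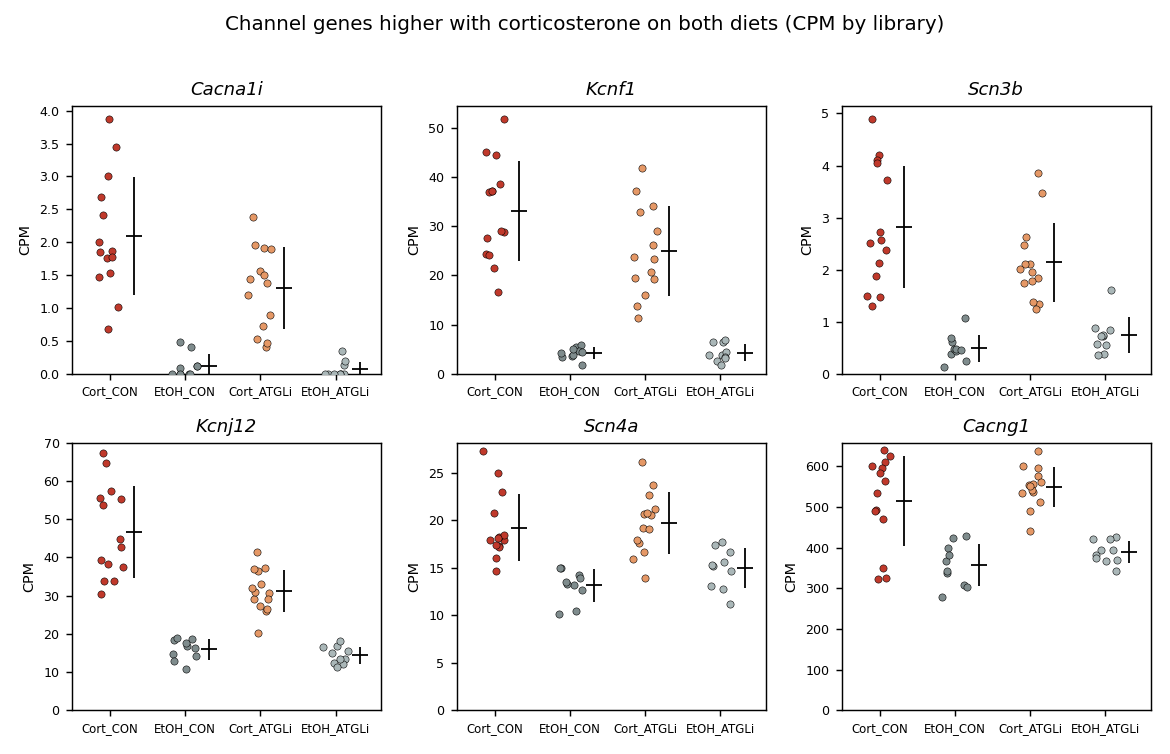
CPM in each library (points) for 6 channel genes that rose with corticosterone on both diets, with the mean and SD (n = 14 in each Cort group, n = 10 in each EtOH group) beside the points. Cacna1i, Kcnf1 and Kcnj12 do not overlap between corticosterone and vehicle on either diet, whereas Scn4a does overlap on both.

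Among the calcium channel pore subunits, the gene with the largest change of any member was Cacna1i, a low-voltage-activated (T-type) channel best known from the brain. It had 0.676 to 3.87 CPM (median 1.86) in Cort_CON and 0 to 0.485 CPM (median 0.047) in EtOH_CON, where 5 of 10 libraries were at 0. In Cort_ATGLi it had 0.411 to 2.39 CPM (median 1.41), and in EtOH_ATGLi 0 to 0.338 CPM (median 0), with 7 of 10 libraries at 0. No corticosterone library was at 0, and the groups did not overlap on either diet. The fitted log2 fold changes were 3.96 (SE 0.45, adjusted p = 1.82e-10) and 4.06 (SE 0.51, adjusted p = 4.35e-09). With vehicle counts this close to 0, their size depends on how the fit treats zeros, and all levels rest on few counts.

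The other T-type genes went the other way or were not called. Cacna1g had 0 to 0.681 CPM (median 0.306) in Cort_CON and 0.287 to 2.40 CPM (median 1.08) in EtOH_CON, and a log2 change of -1.76 (SE 0.36, adjusted p = 6.27e-05). On atglistatin Cacna1g had a median of 0.549 CPM in Cort_ATGLi and 0.654 CPM in EtOH_ATGLi, with a log2 change of -0.34 (SE 0.35, adjusted p = 0.504). Cacna1h, the remaining one, had log2 fold changes of -0.78 (adjusted p = 0.109) and -0.49 (adjusted p = 0.381). Cacna1a, the pore subunit of nerve terminal channels, fell by 0.36 on the log2 scale on the control diet (SE 0.13, adjusted p = 0.0246); with atglistatin its value was -0.30 (SE 0.13, adjusted p = 0.0815).

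The auxiliary subunits of the muscle L-type channel, the voltage sensor of the transverse tubule, moved by small amounts. Cacng1, its gamma subunit, had 322.9 to 640.3 CPM (median 549.2) in Cort_CON and 277.4 to 429.8 CPM (median 355.3) in EtOH_CON. On atglistatin Cacng1 had 439.9 to 638.9 CPM (median 553.3) in Cort_ATGLi and 342.6 to 425.1 CPM (median 388.6) in EtOH_ATGLi, with no overlap. It rose by a log2 change of 0.53 (SE 0.09, adjusted p = 5.29e-06) and 0.50 (SE 0.09, adjusted p = 2.06e-05).

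Cacnb1, the muscle beta subunit, rose on the control diet by 0.16 (SE 0.06, adjusted p = 0.0252) on the log2 scale and had a value of 0.03 (SE 0.06, adjusted p = 0.734) with atglistatin. Cacna2d1, the alpha2-delta subunit of muscle, was not called, at 0.05 and -0.06. Cacng6, a relative of Cacng1, fell on the control diet by 0.20 on the log2 scale (SE 0.07, adjusted p = 0.0171). Cacna2d4, an alpha2-delta subunit known from the retina, had 0.377 to 3.89 CPM (median 2.08) in Cort_CON and 3.22 to 7.89 CPM (median 4.74) in EtOH_CON. On atglistatin it had 0.092 to 3.33 CPM (median 1.48) in Cort_ATGLi and 1.57 to 8.12 CPM (median 2.83) in EtOH_ATGLi. The log2 fold changes of Cacna2d4 were -1.41 (SE 0.28, adjusted p = 7.33e-05) and -1.18 (SE 0.30, adjusted p = 0.0018). The gene Lrtm2 overlaps it on the other strand and was not called, at 0.47 and 0.48, and the counting's strand setting is unknown here.

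Of the 7 CLC genes, only Clcn5 was called, and it fell on both diets. Of all genes, 38.4% were called on the control diet and 30% with atglistatin, and 7 genes are too few to set against those shares. Clcn5, an endosomal chloride-proton exchanger, had 0.652 to 1.70 CPM (median 1.05) in Cort_CON and 1.48 to 3.54 CPM (median 2.28) in EtOH_CON. On atglistatin it had 0.411 to 2.48 CPM (median 1.19) in Cort_ATGLi and 1.55 to 2.75 CPM (median 1.95) in EtOH_ATGLi. The groups overlapped on both diets, and the log2 fold changes were -1.06 (SE 0.21, adjusted p = 4.64e-05) and -0.75 (SE 0.21, adjusted p = 0.0042). Clcn1, the chloride channel of the fibre membrane, had 67 to 146.3 CPM (median 89.9) in Cort_CON and 61.7 to 168.2 CPM (median 95.3) in EtOH_CON. Its log2 fold changes of -0.17 (SE 0.14, adjusted p = 0.351) and -0.14 (SE 0.14, adjusted p = 0.462) were not called. The exchangers Clcn3 and Clcn4 had values of -0.09 and -0.01 on the control diet and -0.13 and -0.03 with atglistatin.

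In the voltage-gated potassium channel group, 3 of 14 tested members rose and 6 fell on the control diet, and 2 rose and 3 fell with atglistatin. Of all genes, 18.9% rose and 19.5% fell on the control diet, and 15% went each way with atglistatin. Kcnf1 (ENSMUSG00000051726; GENCODE M21, GRCm38, chr12:17172100-17176888, minus strand), a silent subunit, had 16.6 to 51.9 CPM (median 33) in Cort_CON and 1.87 to 5.85 CPM (median 4.30) in EtOH_CON. It had 11.4 to 41.9 CPM (median 23.6) in Cort_ATGLi and 1.69 to 6.77 CPM (median 3.82) in EtOH_ATGLi. Every corticosterone library was above every vehicle library on its own diet. The log2 fold changes of Kcnf1 were 2.97 (SE 0.23, adjusted p = 4.51e-15) and 2.58 (SE 0.22, adjusted p = 8.6e-13). Members whose groups did not overlap upward numbered 4 on each diet, where 2.37% of all genes did so on the control diet and 1.84% with atglistatin. On the control diet they were Cacna1i, Kcnf1, Kcnj12 and Scn3b. With atglistatin they were Cacna1i, Cacng1, Kcnf1 and Kcnj12. Of these, Cacna1i and Scn3b passed the filter on low counts mainly through the corticosterone libraries, so their separation is a description only. Kcng4, another silent subunit, was not called under corticosterone, at 0.35 (SE 0.20, adjusted p = 0.164) and 0.23 (SE 0.21, adjusted p = 0.441).

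**Figure D3:**
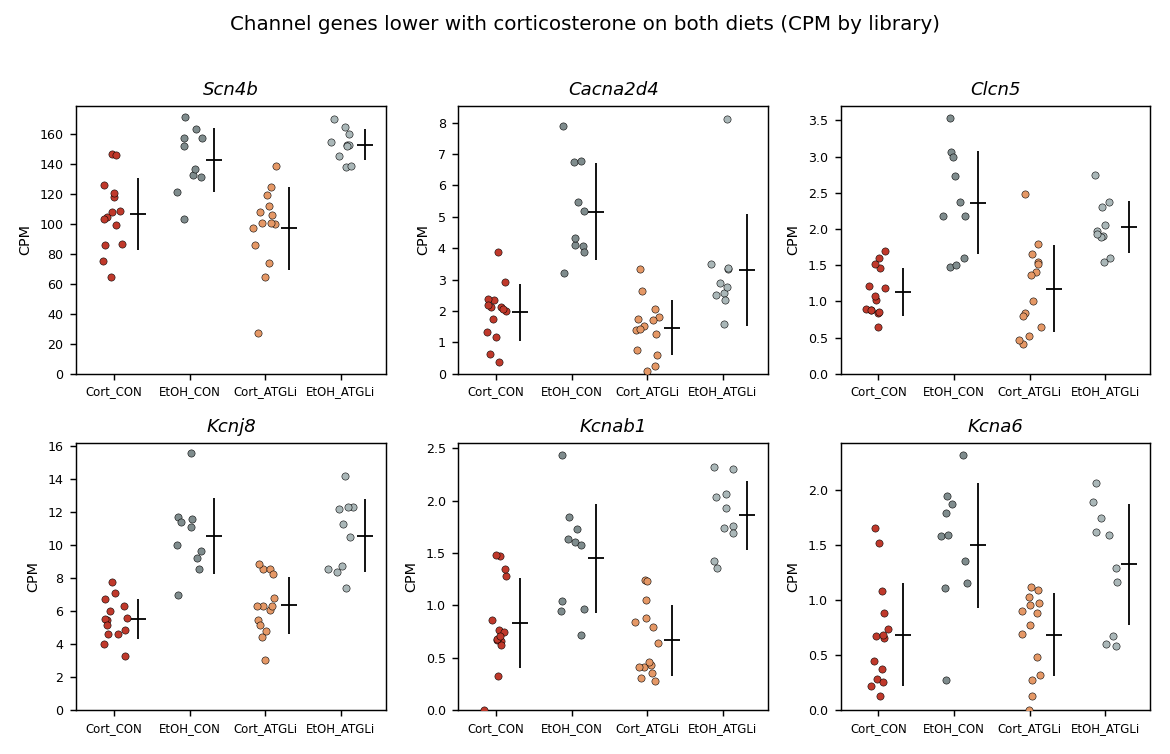
CPM in each library (points) for 6 channel genes that fell with corticosterone on both diets, with the mean and SD (n = 14 in each Cort group, n = 10 in each EtOH group). For Kcnj8 the medians were 5.52 in Cort_CON and 10.6 in EtOH_CON, and 1 vehicle library stands far above the rest of EtOH_ATGLi for Cacna2d4, at 8.12 CPM.

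Kcnc4, a fast-inactivating subunit found in skeletal muscle, rose on both diets, and its relative Kcnc1 fell on the control diet. Kcnc4 had 34.9 to 77.5 CPM (median 39.6) in Cort_CON, where p45 was highest and the next library had 46.2 CPM. In EtOH_CON it had 26.8 to 47.8 CPM (median 30.7), where p01 was highest and the next library had 36.6 CPM. Its log2 fold changes were 0.39 (SE 0.10, adjusted p = 0.00156) and 0.28 (SE 0.10, adjusted p = 0.0281). The call on the control diet was kept without Cort_CON p45, and the call with atglistatin was lost without Cort_ATGLi p41. Kcnc1 had 9.31 to 20.6 CPM (median 14) in Cort_CON and 14.3 to 26.2 CPM (median 21.9) in EtOH_CON, a log2 change of -0.52 (SE 0.13, adjusted p = 0.00149). With atglistatin Kcnc1 stood at -0.27 (SE 0.13, adjusted p = 0.13).

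Several low-count members of the voltage-gated potassium group fell. Kcna6, a delayed rectifier of the Kv1 family, fell by 1.14 on the log2 scale on the control diet (SE 0.33, adjusted p = 0.00427) and by 0.93 with atglistatin (SE 0.33, adjusted p = 0.0262). Kcnh2, the pore subunit of the ERG channel of heart, had a median of 0.349 CPM in Cort_CON and 0.925 CPM in EtOH_CON and a log2 change of -1.44 (SE 0.42, adjusted p = 0.00455); with atglistatin it was -1.05 (SE 0.43, adjusted p = 0.0575). Kcna2, a Kv1 subunit of myelinated axons, fell on the control diet by 0.60 (SE 0.23, adjusted p = 0.0301) on the log2 scale.

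Kcna5, a Kv1 subunit of heart and vessels, rose on the control diet by 0.56 (SE 0.21, adjusted p = 0.0314). Without EtOH_CON p01, the calls of Kcna2 and Kcna5 were among those lost, with values of -0.56 and 0.50 and adjusted p of 0.0541 and 0.0607; without Cort_CON p45, Kcna5 was lost too, at 0.49 (adjusted p = 0.0646). Kcnq5, an M-type channel subunit, fell with atglistatin by 0.57 on the log2 scale (SE 0.17, adjusted p = 0.00829) and had -0.41 (SE 0.17, adjusted p = 0.0557) on the control diet. Kcna7, a Kv1 subunit expressed in muscle, was not called, at -0.12 and -0.15.

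The inward rectifiers that set the resting potential separated by gene. Kcnj12 (ENSMUSG00000042529; GENCODE M21, GRCm38, chr11:61022564-61071131, plus strand) had 30.5 to 67.2 CPM (median 43.7) in Cort_CON and 10.7 to 18.8 CPM (median 16.4) in EtOH_CON. It had 20.3 to 41.4 CPM (median 30.7) in Cort_ATGLi and 11.2 to 18 CPM (median 14.1) in EtOH_ATGLi. The groups did not overlap on either diet, and Kcnj12 rose by 1.56 (SE 0.12, adjusted p = 7.18e-16) and 1.11 (SE 0.12, adjusted p = 9.21e-11) on the log2 scale. Kcnj2, the other strong rectifier of muscle, varied widely within groups. It had 8.24 to 43.7 CPM (median 23.1) in Cort_CON and 5.75 to 31.1 CPM (median 16.7) in EtOH_CON, and its log2 fold changes of 0.36 (SE 0.28, adjusted p = 0.313) and 0.10 (SE 0.27, adjusted p = 0.836) were not called. Kcnj15 rose on the control diet by 1.58 (SE 0.41, adjusted p = 0.00134), with medians of 0.982 CPM in Cort_CON and 0.40 CPM in EtOH_CON.

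Kcnj8, the pore subunit of the ATP-sensitive potassium channel of smooth muscle and pericytes, fell. It had 3.29 to 7.77 CPM (median 5.52) in Cort_CON and 7 to 15.6 CPM (median 10.6) in EtOH_CON. On atglistatin Kcnj8 had 3.03 to 8.84 CPM (median 6.32) in Cort_ATGLi and 7.44 to 14.2 CPM (median 10.9) in EtOH_ATGLi. Most corticosterone libraries, 12 of 14 on the control diet and 10 of 14 with atglistatin, lay below every vehicle library. The log2 fold changes were -0.94 (SE 0.14, adjusted p = 1.13e-07) and -0.74 (SE 0.14, adjusted p = 1.7e-05). Muscle holds other cells than fibres, and in bulk RNA fewer cells of a type and less RNA per cell cannot be told apart.

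Markers of those cells moved with corticosterone as well. The background for their counts was 18.9% of all genes higher and 19.5% lower on the control diet, and 15% each way with atglistatin. Of 8 smooth muscle and pericyte markers, 5 fell on the control diet and 1 with atglistatin, and none rose. Their summed level was 193.8 to 343.8 CPM in Cort_CON and 258.6 to 368.3 CPM in EtOH_CON, and 222.1 to 292.7 CPM in Cort_ATGLi and 235.5 to 353.2 CPM in EtOH_ATGLi. Of 8 fibro-adipogenic markers, 7 fell on each diet, and their sum was 530.7 to 1002.4 CPM in Cort_CON and 1170.1 to 1465.3 CPM in EtOH_CON. With atglistatin that sum was 606.9 to 823.7 CPM in Cort_ATGLi and 903.4 to 1481.7 CPM in EtOH_ATGLi. Of 8 Schwann cell markers, 4 fell on the control diet and 0 with atglistatin. The Schwann sum was 58 to 199.6 CPM in Cort_CON and 77.6 to 369.4 CPM in EtOH_CON, and 72.1 to 214.3 CPM in Cort_ATGLi and 70 to 358.1 CPM in EtOH_ATGLi. Endothelial and macrophage lists each had 4 of 8 markers lower and 1 of 8 higher on both diets. The endothelial sum was not lower as a whole, with medians of 180.7 CPM in Cort_CON and 181.2 CPM in EtOH_CON. With atglistatin its medians were 191.5 CPM in Cort_ATGLi and 177.8 CPM in EtOH_ATGLi. Macrophage sums had medians of 92.4 CPM in Cort_CON and 105.2 CPM in EtOH_CON, and 78.1 CPM in Cort_ATGLi and 94.8 CPM in EtOH_ATGLi. Of 6 adipocyte markers, 1 rose and 2 fell on the control diet, and 2 rose with atglistatin. Of 8 skeletal muscle markers, 4 rose on the control diet and 3 with atglistatin. The part of these shifts in the fall of channel genes such as Kcnj8, Kcna2, Kcna6 and Kcnn3 was not tested.

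Among the 4 tested auxiliary potassium channel subunits, 1 rose and 1 fell on both diets, where 12.3% of all genes rose and 12.2% fell on both. Kcnab1, a Kv1 beta subunit, had 0 to 1.48 CPM (median 0.73) in Cort_CON and 0.719 to 2.43 CPM (median 1.59) in EtOH_CON. On atglistatin it had 0.276 to 1.24 CPM (median 0.553) in Cort_ATGLi and 1.36 to 2.32 CPM (median 1.85) in EtOH_ATGLi, with no overlap. It was the only member of the 67 whose groups did not overlap downward with atglistatin, where 1.61% of all genes were so separated; on the control diet 0 members were, against 2.33% of all genes. The log2 fold changes of Kcnab1 were -0.83 (SE 0.27, adjusted p = 0.0124) and -1.47 (SE 0.27, adjusted p = 1.97e-05).

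Kcne1l, a small membrane subunit of the KCNE family, rose by 2.43 (SE 0.46, adjusted p = 2.52e-05) and 1.58 (SE 0.49, adjusted p = 0.0108), with medians of 0.748 CPM in Cort_CON and 0.123 CPM in EtOH_CON, and 0.445 CPM in Cort_ATGLi and 0.146 CPM in EtOH_ATGLi; without Cort_ATGLi p41, or without Cort_CON p45, it no longer passed the filter and was not tested. By limma voom, which tested Kcne1l, its call with atglistatin was lost (1.41, SE 0.58, adjusted p = 0.0553). Kcne4, an inhibitory KCNE subunit, fell on the control diet by 0.92 on the log2 scale (SE 0.27, adjusted p = 0.00598). Kcnip2, a calcium-binding partner of Kv4 channels, was not called.

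Calcium-activated and two-pore-domain channels changed little or at low counts. Kcnma1, the large-conductance calcium-activated channel, had 14.3 to 19.7 CPM (median 16.7) in Cort_ATGLi and 16.1 to 26.8 CPM (median 18.8) in EtOH_ATGLi. It fell there by 0.28 on the log2 scale (SE 0.09, adjusted p = 0.0131), a call lost without EtOH_ATGLi p13; on the control diet it was -0.12 (SE 0.09, adjusted p = 0.306). Kcnn3, a small-conductance channel, fell on the control diet by 1.30 (SE 0.40, adjusted p = 0.00798), with medians of 0.266 CPM in Cort_CON and 0.625 CPM in EtOH_CON. Kcnk2, a mechanosensitive leak channel, fell with atglistatin by 0.51 (SE 0.15, adjusted p = 0.00863) and had -0.37 (SE 0.16, adjusted p = 0.0557) on the control diet. Kcnk5, an acid-sensitive leak channel, fell with atglistatin by 1.17 (SE 0.39, adjusted p = 0.0189), at medians of 0.321 CPM in Cort_ATGLi and 0.726 CPM in EtOH_ATGLi.

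The TRP genes proposed as stretch- or store-related channels of muscle fibres, Trpc1 and Trpv2, were at medians between 0.438 and 0.702 CPM in every group and were not called. Trpm4, a calcium-activated cation channel, had -0.09 and -0.07, and Trpm7, a channel with a kinase domain, had 0.05 and -0.05. Trpc4ap rose with atglistatin by 0.15 (SE 0.06, adjusted p = 0.0484), a call lost without Cort_ATGLi p41, without EtOH_ATGLi p13 or without the filter on low counts.

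The 15 members removed by the filter averaged 0.214 to 0.45 CPM over all libraries and are reported only as levels, with a fit without the filter. Kcnh7, an ERG-family channel, averaged 0.063 CPM in Cort_CON and 0.542 CPM in EtOH_CON, and 0.043 CPM in Cort_ATGLi and 0.337 CPM in EtOH_ATGLi. In the unfiltered edgeR fit its log2 fold changes were -2.99 (SE 0.59, adjusted p = 5e-05) and -2.69 (SE 0.63, adjusted p = 0.000748). Kcnj11, the pore subunit of the ATP-sensitive potassium channel of muscle fibres, averaged 0.315 CPM in Cort_CON and 0.137 CPM in EtOH_CON, and 0.302 CPM in Cort_ATGLi and 0.069 CPM in EtOH_ATGLi. Unfiltered, it had 1.05 (SE 0.58, adjusted p = 0.161) on the control diet and 1.77 (SE 0.64, adjusted p = 0.0316) with atglistatin. Cacna2d2, an alpha2-delta subunit, was the remaining unfiltered call, at -1.33 (SE 0.53, adjusted p = 0.0452) on the control diet. All 3 rest on a few counts per library, and Kcnh7 overlaps Gca on the other strand.

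Other channels, ion pumps and channel regulators gave a setting for these values. Of 68 genes listed, 58 were in the table and 53 were tested. On the control diet 14 rose and 12 fell, where 18.9% of all genes rose and 19.5% fell. With atglistatin 13 rose and 8 fell, where 15% of all genes went each way. Ank3, ankyrin-G, an anchor of sodium channels, rose by 0.77 (SE 0.08, adjusted p = 2.86e-12) and 0.73 (SE 0.08, adjusted p = 3.52e-11).

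Abcc8, a sulfonylurea receptor that pairs with Kcnj11 in ATP-sensitive channels, had 2.72 to 10.1 CPM (median 4.16) in Cort_CON and 0.742 to 2.05 CPM (median 1.55) in EtOH_CON. It rose by 1.74 (SE 0.23, adjusted p = 1.45e-08) on the control diet and 1.63 (SE 0.23, adjusted p = 1.62e-07) with atglistatin. Dlg1, a scaffold of potassium channels, rose by 0.40 (SE 0.05, adjusted p = 3.4e-08) on the control diet, and Ano5, an anoctamin of muscle, by 0.32 (SE 0.06, adjusted p = 6.7e-05) with atglistatin. These genes were among the 4 with the smallest p of that list.

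Within corticosterone mice, the diet moved 3 members, all downward, Kcnj12 and Kcng4 among them, which is 4.48% of the 67 where 1.6% of all genes were called, 0.929% downward. Kcnj12 had 20.3 to 41.4 CPM in Cort_ATGLi and 30.5 to 67.2 CPM in Cort_CON, overlapping groups, with a log2 change of -0.58 (SE 0.10, adjusted p = 0.000698). Kcng4 had 1.10 to 11.1 CPM (median 7.18) in Cort_ATGLi and 4.28 to 17.6 CPM (median 13) in Cort_CON, with -0.80 (SE 0.18, adjusted p = 0.0115). In both genes, all 14 Cort_ATGLi libraries lay below the Cort_CON mean. For Kcnj12 the diet value ran against the direction of corticosterone. Since 9 of the 14 Cort_CON mice and no Cort_ATGLi mouse were labelled diabetic, diet and disease state are mixed in this comparison. Against the 5 nondiabetic Cort_CON mice alone, Kcnj12 stood at -0.76 (SE 0.13, adjusted p = 0.000611) and Kcng4 at -0.69 (SE 0.25, adjusted p = 0.202). Kcng4 also missed the threshold when only the 2 groups were fitted (adjusted p = 0.0653). The muscle channel genes named in every comparison were not called, Kcnj12 excepted, and the highest was Trpv2 at 0.35. Trpv2 had 2.94 CPM in Cort_ATGLi p41, where the next library had 1.24 CPM. Its medians were 0.576 CPM in Cort_ATGLi and 0.561 CPM in Cort_CON.

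**Figure D4:**
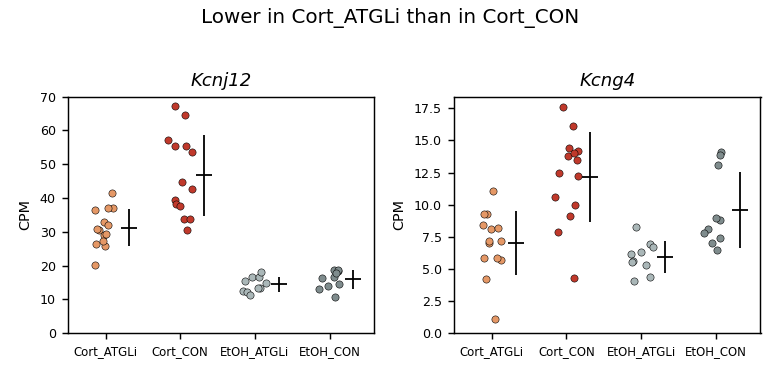
CPM in each library (points) of 2 channel genes that were lower in Cort_ATGLi than in Cort_CON, with the mean and SD (n = 14 in each Cort group, n = 10 in each EtOH group). Kcng4 had medians of 7.18 CPM in Cort_ATGLi and 13 CPM in Cort_CON, and 5.90 CPM in EtOH_ATGLi and 8.47 CPM in EtOH_CON.

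In vehicle mice, 0 of 67 members were called between diets by edgeR, and DESeq2 and limma voom also called 0; 0.0238% of all genes were called. An unadjusted p under 0.05 was found for 2 members, where 6.66% of all genes had one. The member with the smallest adjusted p was Kcng4, with 4.06 to 8.25 CPM (median 5.90) in EtOH_ATGLi and 6.5 to 14.1 CPM (median 8.47) in EtOH_CON, at -0.68 (SE 0.22, adjusted p = 0.363). It was called there only when these 2 groups were fitted alone (adjusted p = 0.0422). The muscle channel genes named in every comparison lay between -0.21 (Kcnc1) and 0.18 (Scn4a) on the log2 scale. Among the other channels and regulators, Tpcn1, an endolysosomal channel, was the 1 gene called between diets under corticosterone, at 0.20 (SE 0.05, adjusted p = 0.0337), with 31.9 to 43.9 CPM in Cort_ATGLi and 28.8 to 37.2 CPM in Cort_CON. Next in that comparison came Panx1, a large-pore channel, at 0.57 (SE 0.16, adjusted p = 0.057), Ano6, a scramblase of the anoctamin family, at 0.30 (SE 0.09, adjusted p = 0.0823), and Atp1b2, a sodium pump subunit, at -0.27 (SE 0.09, adjusted p = 0.101). In vehicle mice Dlg1, Ank3 and Orai3 were among the genes with the smallest p of that list, with adjusted p of 0.64 or more.

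The interaction asked whether the corticosterone response differed between the atglistatin and the control diet. By edgeR 0 of 67 members passed, DESeq2 and limma voom also called 0, and 0.0397% of all genes passed. An unadjusted p under 0.05 was found for 3 members, where 5.52% of all genes had one. The smallest unadjusted p belonged to Cacna1g (1.42, SE 0.50, adjusted p = 0.677), followed by Scn3b (-0.98, SE 0.37, adjusted p = 0.698) and Kcnj12 (-0.44, SE 0.16, adjusted p = 0.698). The muscle channel genes named in every comparison lay between -0.44 (Kcnj12) and 0.45 (Trpv2). The Trpv2 value includes Cort_ATGLi p41, at 2.94 CPM where the next library had 1.24 CPM. Panx1, Tpcn1, Ano6 and Dlg1, first by p among the other channels and regulators, had adjusted p of 0.663 or more. A member called on 1 diet and missing the threshold on the other was therefore not shown to respond differently.

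Diabetic and nondiabetic Cort_CON mice were compared last, with 9 and 5 libraries. In edgeR's test 0 of 67 members were called, as were 0% of all genes, and DESeq2 and limma voom called 0 members too. An unadjusted p under 0.05 was found for 4 members, where 4.96% of all genes had one: Kcnip2, Kcna5, Cacng1 and Kcnmb1. Kcna5 had 2.56 to 6.97 CPM (median 4.69) in diabetic and 2.53 to 3.14 CPM (median 2.72) in nondiabetic mice, with a log2 change of 0.75 (SE 0.27, adjusted p = 0.864). The muscle channel genes named in every comparison lay between -0.29 (Kcnj12) and 0.28 (Cacng1). With only the 5 nondiabetic Cort_CON mice set against EtOH_CON, Kcna5 was at 0.02 (adjusted p = 0.961).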

How the data were processed

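Per the labels' protocols, QuantSeq libraries were read forward for 50 bp. The deposited raw counts are whole numbers per gene. All were even in 47 of the 48 libraries, and the cause is unknown, so 1 count need not stand for 1 read. A second deposited table holds a normalized signal per gene; each value was checked to be the raw count divided by 1 factor per library, so it was not tested. R 3.6.1, DESeq2 1.24.0 and build GRCm38 are named in the submitters' processing notes. No source used here gives the aligner, the counter or its strand setting.

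Gene symbols and positions came from GENCODE M21 and the given name tables, and promoter windows from RefSeq. Genes were kept by filterByExpr (minimum count 10, minimum total 15), which left 12592 of 14125. Testing used the quasi-likelihood method of edgeR 4.0.16 (robust, TMM scaling) in R 4.3.3, with the 4 groups and all 48 libraries in 1 fit, two-sided, Benjamini-Hochberg adjusted over all tested genes, threshold 0.05. The disease-state comparison came from a separate fit of all 48 libraries, with Cort_CON split by disease state. The test was tried on simulated data first. DESeq2 1.42.0 and limma voom 3.58.1 were alternatives, beside other scaling, filters, groups fitted and left-out libraries. The members and all lists were chosen with earlier results of these data known. Genes were named by rule: listed muscle channel genes in every comparison, and, per comparison, the 8 largest rises and 8 largest falls among called members with a mean of at least 1 CPM, plus 4 genes of the other list. Other members, mostly at lower counts, were named after their values were seen. Replicate numbers are those in the titles. Counts are not molecules, since the labels name no molecular identifiers. Some members and listed genes are counted but not reported here by name.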

Additional observations from a re-analysis of the deposited data

Results flagged for a closer look

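Dixon's test was applied to 60 gene and group combinations in vehicle mice, with the critical value for 10 libraries (0.466). Single libraries stood apart from the rest of their group in 6 of them, where chance alone marks about 1 in 20. The Cort groups, of 14 libraries each, were not checked. Single libraries could stand apart there too: Kcnc4 had 77.5 CPM in Cort_CON p45, where the next highest was 46.2. In EtOH_CON, library p01 gave 3 of the 6. It had 47.8 CPM of Kcnc4, where the next highest was 36.6. It had the lowest level of Kcna7, at 5.47 CPM beside 11.9 in the nearest library, and of Kcnma1, at 12.6 CPM beside 17.2. In EtOH_CON p10, Kcne4 was lowest at 0.364 CPM beside 1.12. In EtOH_ATGLi, Cacna2d4 was highest in p12 at 8.12 CPM beside 3.48, and Scn3b was highest in p07 at 1.60 CPM beside 0.87. The cause of these values was not tested.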

How the results depend on the processing

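The calls kept their direction under every alternative fit run, except Scn2b in Cort_ATGLi against EtOH_ATGLi, which stood at -0.05 with a replicate block, against 0.91 in the fit of all 48 libraries. That block could use only the 12 libraries whose title numbers recur in another group. From Cort_ATGLi these were p13 and p14 alone, so its values for that group rest on 2 libraries. Deviations of same-numbered libraries correlated at -0.0596 to 0.155 over 6 pairs, so the numbers were not taken to pair mice. With the block 3 members were higher and 2 lower in Cort_ATGLi, against 10 and 13 with all libraries. The same 12 libraries without it, a fit added after seeing the data, gave 5 and 5. Of all genes, 7.18% were called with the block and 11.1% without it, against 30% with all libraries. Few Cort_ATGLi libraries entered both fits. With only the 5 nondiabetic Cort_CON mice compared, 7 members were lower in them than in EtOH_CON, against 18. In Cort_ATGLi 1 was lower than in those 5 mice, against 3. All 48 libraries were in that fit, but fewer mice entered those comparisons. With only the 2 groups in the fit, 1 member was lower in EtOH_ATGLi than in EtOH_CON (against 0) and 1 in Cort_ATGLi than in Cort_CON (against 3); the cause was not tested.

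Named members that were called in neither fit changed sign near 0 as follows. On the control diet these were Cacna2d1 without EtOH_CON replicate p01 (-0.02, with up to 0.05 when another library was left out) and Trpc1 by limma voom (-0.08). With atglistatin they were, by limma voom, Kcnj2 (-0.01) and Trpv2 (-0.11); with the replicate block, Kcna7 (0.19) and Cacnb1 (-0.09); unblocked with the same 12 libraries, Cacnb1 (-0.07) and Trpc1 (0.09); without EtOH_ATGLi replicate p13, Trpc1 (0.14); and without Cort_ATGLi replicate p41, Trpv2 (-0.17, with up to 0.30 when another library was left out). On halved counts 46 members passed the filter, and 25 of the 30 control-diet calls and 20 of the 23 with atglistatin remained. The control-diet calls missing there, of Cacna1g, Kcne1l, Kcnh2, Kcnj15 and Kcnn3, were not tested because these genes no longer passed the filter. With atglistatin, Kcne1l and Kcnk5 were not tested either, and Trpc4ap missed the threshold in edgeR's test (adjusted p = 0.0564). The fit without Cort_CON p45 was also added after seeing the data. Depth limits the 23 tested members under 1 CPM and the 15 removed ones most: a level of 1 CPM is about 10 counts in the shallowest library.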
